A study of Mus musculus with 6 samples.

Results

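The genes described here were 10 effectors and modifiers of Notch signaling, taken by name from the 54418 gene identifiers in the count table for their roles in the pathway. They were the target repressors *Hes1*, *Hey1*, *Hey2* and *Heyl*, the feedback target *Nrarp*, the nuclear complex genes *Rbpj* and *Maml1*, and the Fringe genes *Lfng*, *Mfng* and *Rfng*. All 10 passed edgeR's filter on low counts. RNA-seq was performed on cells sorted from mammary glands of 4-week-old C57BL/6 females, of which 3 were *Glis2*+/+ and 3 carried a germline knockout of *Glis2* (*Glis2*-/-), with 1 library per mouse. *Glis2* encodes a Krüppel-like zinc finger protein, and the series asks how its loss changes gene expression in the pubertal mammary gland. The cells were stained with a live-dead dye and with antibodies against TER-119, CD31 and CD45, CD24 and CD49f, and sorted by FACS. The labels do not state which gate was kept. The knockout is carried by every cell of the animal.

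In Notch signaling, a ligand on one cell leads to cleavage of the receptor on its neighbor, and the freed intracellular domain enters the nucleus. There it joins the DNA-binding protein RBPJ and a Mastermind-like coactivator such as MAML1 to switch on targets, among them the Hes and Hey family of basic helix-loop-helix repressors and *Nrarp*, whose product limits the signal. Fringe enzymes extend O-fucose sugars on the receptor and change which ligands it answers to, and in the mammary gland the pathway is known for its part in luminal cell fate.

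RBPJ binds sites with the core TGGGAA, so the 250 bases before the start sites of these genes were read for that core on both strands (TTCCCA on the other strand), and for the longer form GTGGGAA. The promoter sequences are those of RefSeq on GRCm38.p6, where 6 of the 10 genes have 7 promoters and *Hes1*, *Hey1*, *Heyl* and *Mfng* have no entry. The core was found before 3 genes, *Hey2*, *Rbpj* and *Lfng*, and the longer form before 2, *Hey2* and *Lfng*. Of all 32851 promoter windows of this length, 21.6% held the core and 5.42% the longer form. *Hey2* and *Lfng* are printed because these 2 genes kept one direction between the genotypes under every alternative run, and *Nrarp*, a target gene without the core in this window, is printed for contrast. Each sequence is in the direction of transcription and ends at the base before the start site, with the core in capitals on either strand. Such a match is a description of the letters, not a measured binding site.
Hey2, chr10:30842784-30843033, minus strand: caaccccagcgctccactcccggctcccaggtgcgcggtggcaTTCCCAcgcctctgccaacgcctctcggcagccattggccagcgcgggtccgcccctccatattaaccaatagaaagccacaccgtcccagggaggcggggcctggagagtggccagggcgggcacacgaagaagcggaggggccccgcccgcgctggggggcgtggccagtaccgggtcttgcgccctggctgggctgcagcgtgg
Lfng, chr5:140607091-140607340, plus strand: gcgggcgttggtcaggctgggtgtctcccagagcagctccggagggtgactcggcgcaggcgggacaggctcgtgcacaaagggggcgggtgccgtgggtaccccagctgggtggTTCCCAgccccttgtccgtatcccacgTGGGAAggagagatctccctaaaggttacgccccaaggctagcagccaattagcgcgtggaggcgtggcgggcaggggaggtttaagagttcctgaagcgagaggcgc
Nrarp, chr2:25180508-25180757, plus strand: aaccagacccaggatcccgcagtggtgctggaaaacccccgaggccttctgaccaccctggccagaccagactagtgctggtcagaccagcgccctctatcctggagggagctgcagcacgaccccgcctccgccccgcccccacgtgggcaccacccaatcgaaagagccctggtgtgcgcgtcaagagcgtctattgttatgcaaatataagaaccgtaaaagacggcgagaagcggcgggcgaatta
The core lay 207 bases before the start site of *Hey2*, and 135 and 108 bases before that of *Lfng*.

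Across the libraries, total estimated counts ran from 24996524 to 31393917. *Glis2* transcripts were still detected in the *Glis2*-/- libraries, with 252, 509 and 510 counts against 671, 663 and 510 in *Glis2*+/+. As CPM, counts relative to the library total after TMM normalization, these were 10.1, 17.0 and 16.3 against 21.7, 23.2 and 19.6, a log2 fold change of -0.57. With the deposited log2 TPM values and offsets of 1 and 0.1 the log2 fold change was -0.021 and -0.015. In those fits the median over all genes was -0.06 and -0.14. The part of the gene that the knockout removes is not given in the sources used here, so the count does not check the genotype. Summed CPM of 10 luminal markers lay between 3667 and 6318 in the 6 libraries and that of 10 basal markers between 4683 and 7696. Epithelial markers were thus present in every library. The basal sum was 4683 to 6011 CPM in *Glis2*+/+ and 6398 to 7696 CPM in *Glis2*-/-, without overlap. Summed CPM of 7 fibroblast markers lay between 2306 and 7768, and in the first and the third *Glis2*+/+ library, at 7393 and 7768, it exceeded both epithelial sums. Endothelial markers were also present, although CD31 was in the stain: their summed level ranged from 164 to 866 CPM, a 5.29-fold range that crossed the genotypes.

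None of the 10 genes was called different between *Glis2*+/+ and *Glis2*-/- mammary cells by the test across all genes, edgeR's quasi-likelihood test, with a gene called when its adjusted p was 0.05 or less and its log2 fold change 0.58 or more in size. The log2 fold changes of *Hes1*, *Rbpj* and *Maml1* lay between -0.01 and 0.06. *Hey2* had the log2 fold change farthest from 0 in this test, -1.01, with 4.31 ± 0.519 CPM (SD, n = 3) in the *Glis2*+/+ libraries. The *Glis2*-/- libraries had 2.13 ± 0.463 CPM (SD, n = 3). In CPM it was the 1 gene of the 10 whose libraries did not overlap between the genotypes. *Lfng* stood at 20.1 ± 4.55 CPM (SD, n = 3) without and 25.7 ± 4.30 CPM (SD, n = 3) with the knockout, and its libraries overlapped.

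The test called 0 of 21236 genes (0.0%) and hence 0 of the 10, and DESeq2 with the same thresholds called 48 of 27248 genes (0.176%) and again 0 of the 10. At an unadjusted p under 0.05, edgeR gave 1 of the 10 genes, *Hey2*, and 1130 of all genes (5.32%), of which 494 were lower in *Glis2*-/- (2.33%). The 3 libraries of one genotype lay apart from the 3 of the other in CPM for 1 of the 10 and for 2491 of all genes (11.7%), with *Glis2*-/- below for 1167 (5.5%). The counts of 0 and 1 of 10 are near the shares of all genes. Of the 10, 4 had a positive and 6 a negative log2 fold change with a median of -0.04, beside a median of 0.01 over all genes tested, 10961 positive and 10275 negative. With each mouse left out in turn, 0 of the 10 passed the test every time.

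**Figure D1:**
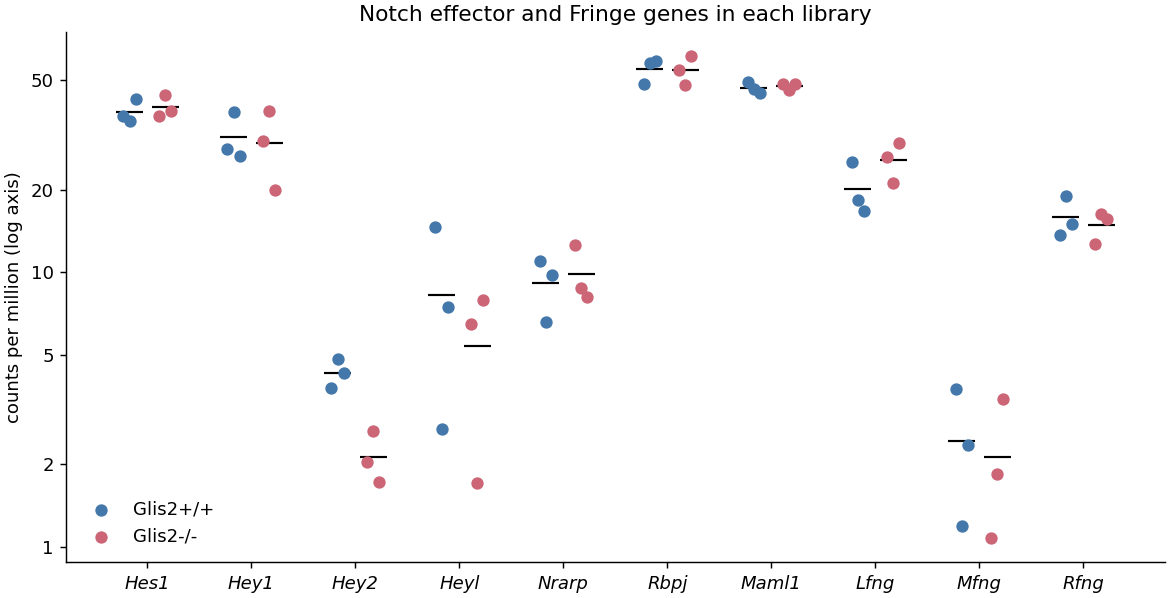
CPM (log axis) of the 10 genes in each library, with blue points for the 3 *Glis2*+/+ mice, red points for the 3 *Glis2*-/- mice and a black bar at each mean. For *Hey2* every red point, from 1.73 to 2.64, lies below every blue point, from 3.79 to 4.83, and the colors overlap for the other 9 genes.

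Per unit of transcript length, *Hes1* was the most abundant of these genes. Levels between genes were compared on the deposited TPM, an abundance corrected for transcript length, rescaled so that protein-coding genes alone make up the total, because these hold between 8.98% and 11.4% of the deposited TPM of a library. On this scale *Hes1* had a median of 78.3 TPM over the 6 libraries (65.7 to 80.6), *Lfng* 49.8 TPM (39.4 to 78.1), *Rbpj* 38.2 TPM (27.1 to 50.4) and *Hey1* 38.0 TPM (23.7 to 46.1). A middle group followed, with *Maml1* at 19.3 TPM (17.9 to 20.7) and *Rfng* at 17.0 TPM (14.0 to 20.3). The lowest were *Nrarp* at 8.23 TPM (5.78 to 11.3), *Mfng* at 6.38 TPM (1.84 to 13.0), *Heyl* at 3.84 TPM (0.811 to 10.1) and *Hey2* at 2.96 TPM (1.59 to 4.34). Of the 9 pairs of neighbors in this order, the ranges over the libraries were apart only for *Hey1* over *Maml1* and for *Rfng* over *Nrarp*. The other 7 pairs overlapped, and *Rbpj* was above *Hey1* in 3 of the 6 libraries.

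**Figure D2:**
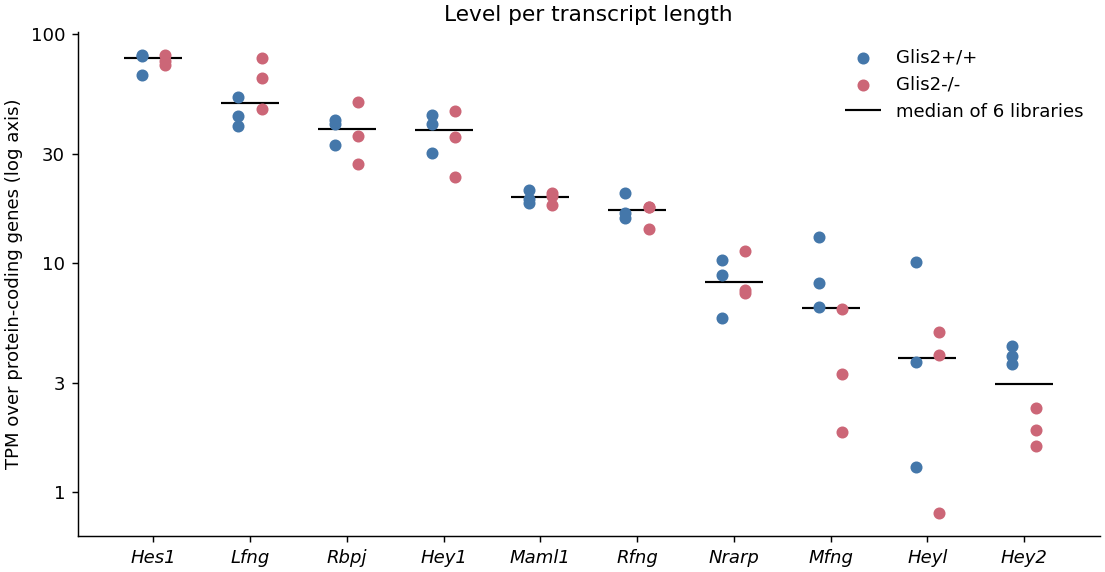
TPM over protein-coding genes (log axis) of the 10 genes, ordered by the median of 6 libraries (black line), with blue points for *Glis2*+/+ and red points for *Glis2*-/-. The medians fall from 78.3 for *Hes1* to 2.96 for *Hey2*, with clear steps after *Hey1* and after *Rfng*, and *Heyl* and *Mfng* scatter most.

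*Hes1* (ENSMUSG00000022528, chr16:30064384-30067796, GRCm38, plus strand), a repressor that is the best known direct Notch target, varied little between mice. Its levels were 36.9, 35.6 and 42.8 CPM in the *Glis2*+/+ libraries and 37.2, 44.3 and 38.7 CPM in the *Glis2*-/- libraries. The genotypes overlapped, and the highest library was 1.25-fold above the lowest. The log2 fold change of *Glis2*-/- over *Glis2*+/+ was 0.06 (SE 0.13, 95% interval -0.24 to 0.36, adjusted p = 0.977 from edgeR).

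*Hey1* (ENSMUSG00000040289, chr3:8663359-8667256, minus strand), a repressor of the Hey branch, was at 28.1, 38.2 and 26.6 CPM in *Glis2*+/+ and 30.1, 38.7 and 19.9 CPM in *Glis2*-/- libraries. The second mouse of each genotype was the highest of its group, and the groups overlapped throughout. The log2 fold change was -0.07 (SE 0.25, 95% interval -0.64 to 0.50, adjusted p = 0.989 from edgeR). It took either sign when single mice were left out, from -0.32 to 0.14.

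*Hey2* (ENSMUSG00000019789, chr10:30832359-30842801, minus strand), the family member best known from the heart and arteries, had few reads. Its counts were 117, 138 and 112 in *Glis2*+/+ and 51, 79 and 54 in *Glis2*-/- libraries. These amount to 3.79, 4.83 and 4.30 CPM against 2.04, 2.64 and 1.73 CPM. Every *Glis2*-/- library was below every *Glis2*+/+ library, and the separation had a two-sided exact permutation p of 0.1, below which a design of 3 against 3 cannot go. The *Glis2*+/+ mean was 2.02-fold the *Glis2*-/- mean in the fit, a log2 fold change of -1.01 (SE 0.33, 95% interval -1.77 to -0.25, unadjusted p = 0.0151 and adjusted p = 0.906 from edgeR). Leaving out single mice gave -1.20 to -0.89. With log2(TPM + 1), a scale that understates the change of a gene at this level, it was -0.26. No alternative turned the sign, and the smallest adjusted p that any of them gave was 0.653, from DESeq2.

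*Heyl* (ENSMUSG00000032744, chr4:123233556-123249875, plus strand), a Hey family repressor known from vascular smooth muscle and pericytes, varied more between mice than any other gene of the group. It had 450, 77 and 194 counts in *Glis2*+/+ and 162, 51 and 249 counts in *Glis2*-/- libraries, or 14.6, 2.70 and 7.45 CPM against 6.47, 1.70 and 7.96 CPM. The second mouse of each genotype was the lowest of its group, and the 6 libraries spanned an 8.49-fold range that crossed the genotypes. The log2 fold change was -0.62 (SE 0.67, 95% interval -2.14 to 0.91, adjusted p = 0.958 from edgeR). Without the first *Glis2*+/+ mouse it was 0.07.

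**Figure D3:**
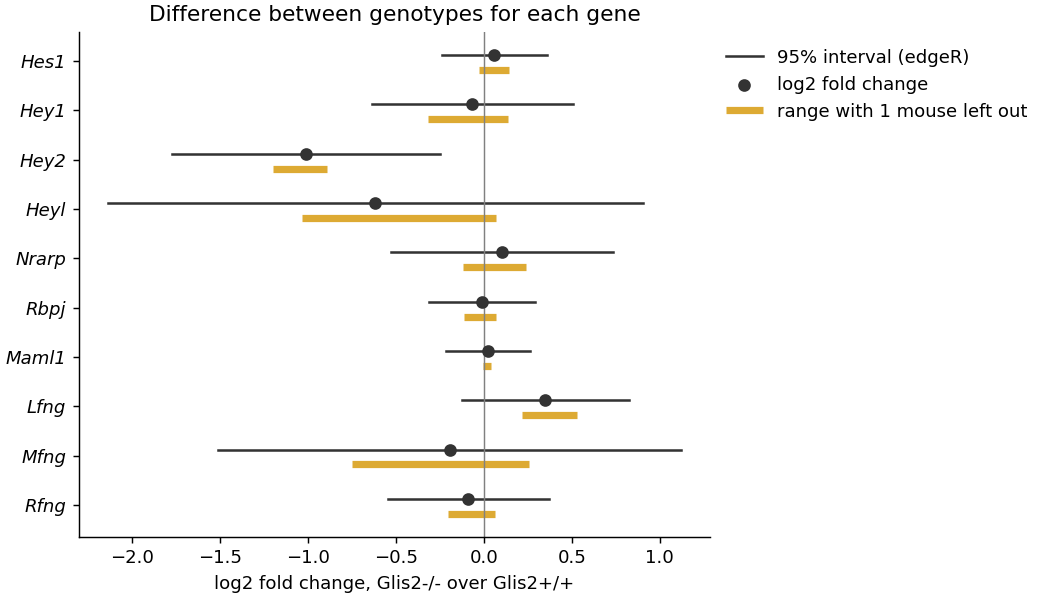
Log2 fold change of *Glis2*-/- over *Glis2*+/+ for each gene (black point) with the 95% interval from edgeR (black line) and the range obtained when 1 mouse was left out (yellow bar). The interval of *Hey2*, -1.77 to -0.25, is the only one that does not include 0, and the yellow bars of *Hey2* and *Lfng* alone stay on one side of 0.

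The levels of vessel cell markers are given beside *Heyl* and *Hey2*, since both genes are known from vessel walls. Summed endothelial markers (*Pecam1*, *Cdh5*, *Kdr* and 7 others) were at 866, 164 and 612 CPM in *Glis2*+/+ and 548, 240 and 843 CPM in *Glis2*-/- libraries. Summed pericyte markers (*Rgs5*, *Pdgfrb* and 4 others) were at 375, 103 and 271 CPM and at 174, 119 and 312 CPM. Both lists were lowest in the second mouse of each genotype, as was *Heyl*, and both overlapped between the genotypes. Summed fibroblast markers had the same low libraries, at 7393, 2306 and 7768 CPM in *Glis2*+/+ and 4290, 2605 and 5919 CPM in *Glis2*-/-. None of the 16 vessel markers was at 0 in any library. The gene of the lists examined whose centred log2 CPM came nearest to *Heyl* was *Cldn5*, an endothelial tight junction gene, with a root-mean-square difference of 0.29 over the 6 libraries and 120 genes compared. For *Hey2* that gene was *Notch3*, at 0.33. In bulk samples fewer cells of a type and less RNA per cell cannot be told apart, and the part of these cells in either gene's level was not tested.

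**Figure D4:**
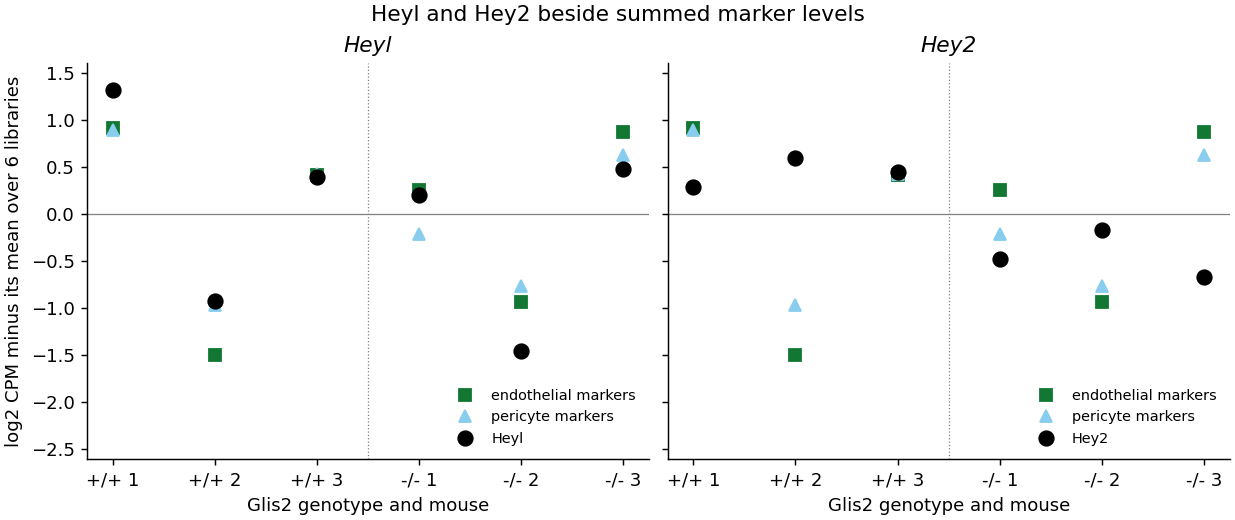
Log2 CPM minus its mean over the 6 libraries (vertical axis) for *Heyl* (left, black) and *Hey2* (right, black), beside summed endothelial (green squares) and pericyte markers (light blue triangles), for the 3 *Glis2*+/+ and 3 *Glis2*-/- mice. *Heyl* is lowest in the second mouse of each genotype, where both marker sums are also lowest, whereas *Hey2* is above its mean in all *Glis2*+/+ and below it in all *Glis2*-/- libraries.

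Within the 4 target repressors, *Hes1* took most of the transcripts in every library. Its share of their summed TPM was 57.0% to 68.1% in *Glis2*+/+ and 62.1% to 71.4% in *Glis2*-/-, with overlap. *Hey2* took 2.69% to 3.76% in *Glis2*+/+ and 1.55% to 1.79% in *Glis2*-/-, without overlap. This share was not tested on its own, and it follows the *Hey2* level given above.

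*Nrarp* (ENSMUSG00000078202, chr2:25180758-25183339, plus strand) encodes an ankyrin repeat protein that is induced by Notch and promotes loss of the intracellular domain. It was at 11.0, 6.62 and 9.79 CPM in *Glis2*+/+ and 12.6, 8.78 and 8.12 CPM in *Glis2*-/- libraries. The groups overlapped, with a log2 fold change of 0.10 (SE 0.28, 95% interval -0.53 to 0.74, adjusted p = 0.981 from edgeR). On the opposite strand, the annotated antisense gene *Gm38287* shares 2051 exon bases with it. The library kit keeps the strand, but whether the estimate used it is not given in the sources used here.

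The genes of the nuclear partners of the receptor varied little between mice in CPM, although *Rbpj* spanned 27.1 to 50.4 in rescaled TPM. *Rbpj* (ENSMUSG00000039191, chr5:53466152-53657362, plus strand), the DNA-binding factor of the pathway, was at 48.6, 57.7 and 58.6 CPM in *Glis2*+/+ and 54.5, 48.1 and 61.1 CPM in *Glis2*-/- libraries. *Maml1* (ENSMUSG00000050567, chr11:50255634-50292311, minus strand), a coactivator that completes the complex, was at 49.2, 46.7 and 45.1 CPM and at 48.4, 46.2 and 48.4 CPM. Both overlapped between the genotypes, and the highest library exceeded the lowest by 1.27-fold for *Rbpj* and 1.09-fold for *Maml1*, the narrowest range of the 10. The log2 fold change of *Rbpj* was -0.01 (95% interval -0.31 to 0.29) and that of *Maml1* 0.02 (95% interval -0.22 to 0.26), with adjusted p of 0.998 and 0.992 from edgeR. *Maml1* shares 135 exon bases with the antisense gene *Gm26542*, and *Rbpj* overlaps 2 antisense genes in introns only.

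*Lfng* (ENSMUSG00000029570, chr5:140607320-140615545, plus strand), the lunatic Fringe glycosyltransferase, was the main Fringe gene per transcript length. It was at 25.3, 18.3 and 16.8 CPM in *Glis2*+/+ and 26.4, 21.1 and 29.6 CPM in *Glis2*-/- libraries. The first *Glis2*+/+ mouse was within the *Glis2*-/- range, and the others were below it. The log2 fold change was 0.35 (SE 0.21, 95% interval -0.12 to 0.82, adjusted p = 0.932 from edgeR), and it was positive under all 13 alternatives. With single mice left out it ranged from 0.22 at an unadjusted p of 0.365, without the third *Glis2*-/- mouse, to 0.53 at an unadjusted p of 0.0347, without the first *Glis2*+/+ mouse, both from edgeR. The gene of the lists nearest to *Lfng* was *Acta2*, a smooth muscle actin of basal cells, at a root-mean-square difference of 0.07. All 10 basal markers had a positive log2 fold change, with a median of 0.42. Of them, 6 had an unadjusted p under 0.05 from edgeR, beside 5.32% of all genes. For 3 of the 10, *Cnn1*, *Tagln* and *Oxtr*, every *Glis2*-/- library was above every *Glis2*+/+ library, beside 6.23% of all genes. The part of the basal cell level in that of *Lfng* was not tested.

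*Lfng* made up 57.1% to 68.9% of the summed Fringe TPM in *Glis2*+/+ and 69.3% to 80.1% in *Glis2*-/- libraries. The ranges did not overlap, by a margin of under a percentage point, and the share also carries the values of *Mfng* that follow.

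*Mfng* (ENSMUSG00000018169, chr15:78755882-78773475, minus strand), the manic Fringe gene, gave different pictures by counts and by TPM. Its counts were 116, 34 and 61 in *Glis2*+/+ and 27, 55 and 108 in *Glis2*-/- libraries, or 3.76, 1.19 and 2.34 CPM against 1.08, 1.84 and 3.45 CPM. On this scale the groups overlapped, with a log2 fold change of -0.19 (SE 0.58, 95% interval -1.51 to 1.12, adjusted p = 0.985 from edgeR). In rescaled TPM its levels were 8.17, 6.45 and 13.0 in *Glis2*+/+ and 1.84, 3.29 and 6.31 in *Glis2*-/- libraries, and every *Glis2*-/- library was below every *Glis2*+/+ library. With limma the log2 fold change was -0.54 at an unadjusted p of 0.0189 on the deposited log2(TPM + 1) scale, and -1.28 at an unadjusted p of 0.0187 on log2(TPM + 0.1).

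The scales differ in library scaling and in the length by which counts are divided. Counts over TPM, relative to the median gene of a library, gave *Mfng* an implied length of 0.526, 0.197 and 0.199 in *Glis2*+/+ and 0.640, 0.589 and 0.607 in *Glis2*-/- libraries. The highest was 3.25-fold the lowest, a wider spread than for 96.5% of 13570 protein-coding genes, whose median was 1.28-fold. The annotation lists 4 transcripts of *Mfng*, 319 to 1865 bases long. Whether the libraries differed in the transcripts present or in how its few reads were assigned was not tested.

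*Rfng* (ENSMUSG00000025158, chr11:120780746-120784207, minus strand), the radical Fringe gene, was at 13.6, 19.0 and 14.9 CPM in *Glis2*+/+ and 12.7, 16.4 and 15.7 CPM in *Glis2*-/- libraries. The groups overlapped, and the log2 fold change was -0.09 (SE 0.20, 95% interval -0.54 to 0.37, adjusted p = 0.979 from edgeR).

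Among 53 other genes of the pathway, *Neurl1b*, *Notch3*, *Jag1* and *Kat2a* had all *Glis2*-/- libraries below all *Glis2*+/+ libraries in CPM. Of these 53 genes, 51 passed the filter on low counts, and *Dll3* and *Hes5* did not. The edgeR test called 0 of the 51. In all, 26 had a positive and 25 a negative log2 fold change, with a median of 0.00, and 2 positive and 3 negative ones had an unadjusted p under 0.05, beside 5.32% of all genes tested. For 9 of the 51 the libraries did not overlap, 5 with *Glis2*-/- above and 4 with *Glis2*-/- below, beside 11.7% of all genes, 6.23% above and 5.5% below.

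*Neurl1b*, a ubiquitin ligase that helps ligands enter the sending cell, was at 16.3, 10.7 and 12.9 CPM in *Glis2*+/+ and 5.83, 5.61 and 7.25 CPM in *Glis2*-/- libraries. Every *Glis2*-/- library was below every *Glis2*+/+ library, a log2 fold change of -1.10 (SE 0.24, adjusted p = 0.849 from edgeR). DESeq2 called it at an adjusted p of 0.0440, with a log2 fold change of -1.10, and called no other gene of this list. In rescaled TPM its libraries overlapped, at 4.75 to 11.2 and 2.92 to 4.81. On the deposited TPM, not rescaled, limma gave a log2 fold change of -0.31 with log2(TPM + 1) and -0.75 with log2(TPM + 0.1).

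*Notch3*, the receptor best known from mural cells, was at 225, 234 and 216 CPM in *Glis2*+/+ and 168, 202 and 149 CPM in *Glis2*-/- libraries. *Jag1*, a ligand, was at 158, 108 and 124 CPM and at 95.8, 98.1 and 107 CPM. Both were separated by genotype, with log2 fold changes of -0.38 (SE 0.12) and -0.37 (SE 0.15) and an adjusted p of 0.906 each from edgeR. *Jag1* was at -0.23 without the first *Glis2*+/+ mouse, and at -0.60 and -0.69 in limma with log2 TPM values and offsets of 1 and 0.1. Beside them, all 6 pericyte markers had a negative log2 fold change, with a median of -0.45 and 1 at an unadjusted p under 0.05 from edgeR, while the sums of that list overlapped.

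The 4 receptors all had negative log2 fold changes, from -0.38 for *Notch3* to -0.05, and *Notch1* was the most abundant per length at 84.6 TPM. Among the coactivators, the acetyltransferase gene *Kat2b* (log2 fold change 0.30) and the Mastermind-like genes *Maml2* (0.18) and *Maml3* (0.19) had all *Glis2*-/- libraries above the others in CPM, and *Kat2a* (-0.20) had them below. With deposited log2 TPM values, not rescaled, and offsets of 1 and 0.1, *Maml3* turned to -0.05 and -0.07, and *Maml2* was at 0.039 and 0.050. In rescaled TPM the *Glis2*+/+ and *Glis2*-/- means were 21.6 and 23.0 for *Maml3* and 27.0 and 31.2 for *Maml2*. The corepressor gene *Ctbp2* (0.26) and the cyclin gene *Ccnd1* (0.14) also had *Glis2*-/- above in CPM. With the deposited log2 TPM values *Ctbp2* was at 0.013 under both offsets and *Ccnd1* turned to -0.15 and -0.16. In rescaled TPM the *Glis2*+/+ and *Glis2*-/- means were 183 and 207 for *Ctbp2* and 181.1 and 181.0 for *Ccnd1*. The adjusted p of these 6 genes was at least 0.906 from edgeR.

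**Figure D5:**
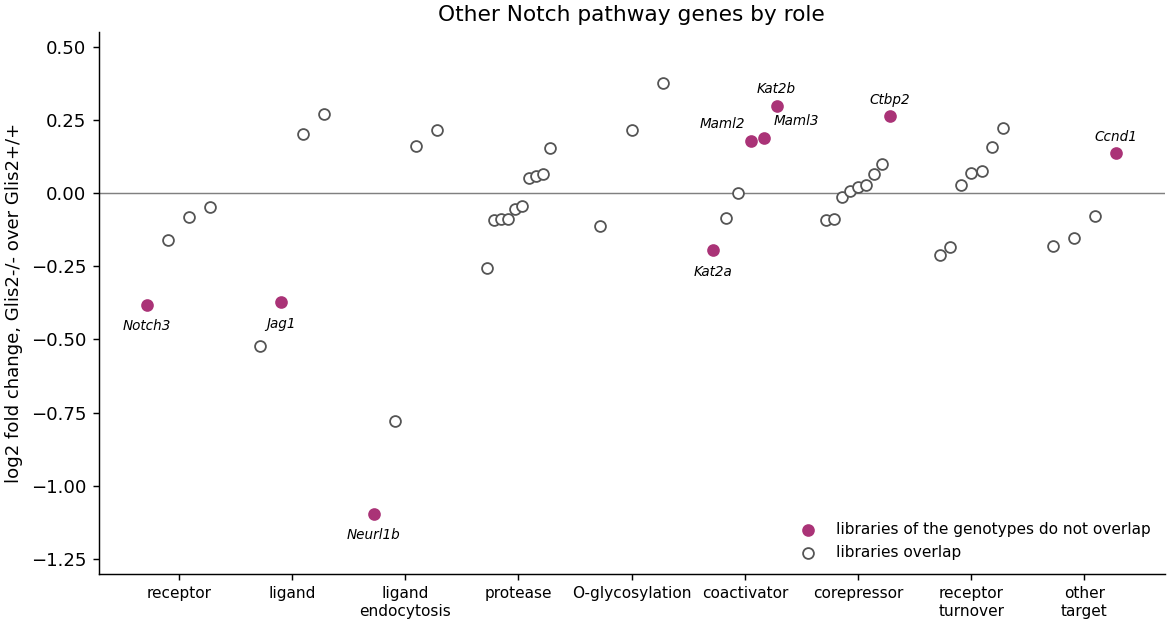
Log2 fold change of *Glis2*-/- over *Glis2*+/+ (vertical axis) of the 51 other pathway genes tested, grouped by role (horizontal axis). Filled points are the 9 genes whose libraries did not overlap in CPM, of which *Neurl1b* at -1.10 lies lowest, and most other genes lie within 0.3 of 0.

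Each other role had 1 gene with the highest median per length. It was *Jag2* among ligands (78.3 TPM), *Mib1* for ligand endocytosis (129 TPM), *Adam10* among proteases (227 TPM) and *Eogt* for O-glycosylation (75.0 TPM). It was *Snw1* among coactivators (105 TPM), *Ncor1* among corepressors (409 TPM), *Numb* for receptor turnover (92.5 TPM) and *Ccnd1* among further targets (182 TPM). Some ranges overlapped, as for *Numb* (77.1 to 103 TPM) and *Dtx3* (75.5 to 98.6 TPM). So did those of *Snw1* (88.8 to 115 TPM) and *Ep300* (75.6 to 106 TPM), and of *Ccnd1* (166 to 192 TPM) and *Myc* (135 to 199 TPM). *Hes1*, at 78.3 TPM, was thus at the level of *Notch1* and *Jag2*, and *Heyl* and *Hey2* were far below them.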

How the data were processed

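Cells were sorted from mammary glands of 3 *Glis2*+/+ and 3 *Glis2*-/- mice, and total RNA was made into strand-specific, rRNA-depleted libraries. The authors estimated transcript abundance with Salmon (version 1.2.1, per the submitters' processing notes) on the mm10 assembly and summed it to genes with tximport. The deposited estimated counts are whole numbers without normalization. The authors deposited TPM as log2 values after adding an offset of 1. Such estimates depend on how Salmon shared reads between transcripts and overlapping genes.

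Counts were normalized by TMM and tested with edgeR 4.0.16 (R 4.3.3), using filterByExpr and the quasi-likelihood test without covariates, with Benjamini-Hochberg adjustment over 21236 genes. Alternatives were DESeq2 1.42.0 without shrinkage, DESeq2 size factors in edgeR, no filter, at least 10 counts in every library, log2 TPM in limma 3.58.1 with offsets of 1 and 0.1, the replicate number as a block, and leaving out each mouse. These were run afterwards also for *Glis2* and the pathway genes named, an addition chosen after seeing the data. For the levels per length, TPM was recovered from the log2 values and rescaled over protein-coding genes. The limma fits used TPM without this rescaling. Symbols and positions for 54166 of the 54418 identifiers came from a GENCODE annotation of GRCm38, which is mm10. The functions were tested on simulated data. The libraries differed by more than sampling noise.

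The members and lists were chosen with earlier results of these data known. Named beside the 10 genes were *Glis2*, pathway genes with an unadjusted p under 0.05 or without overlap between the genotypes, the most abundant gene of each role, marker genes, and the gene with the nearest centred log2 CPM, of which 1 is not reported here. Total counts of 24996524 to 31393917 set the counting precision, and between mice the common biological coefficient of variation was 37.4%. The replicate numbers were not taken to pair the mice, since the labels give no shared litter or batch and not every pair deviated together.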

Additional observations from a re-analysis of the deposited data

How the results depend on the processing

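*Hey2* and *Lfng* kept their direction under all 13 alternatives, as did 7 of the 9 named pathway genes, although *Hey2* was at -0.26 with log2(TPM + 1) and *Ctbp2* at 0.013 with either TPM offset, and 0 of the 10 genes were called under any. The count of all genes called, 0 with edgeR, was 48 with DESeq2, 40 without a filter on low counts and 1 with log2(TPM + 0.1) in limma, and DESeq2 called 1 pathway gene. The number of the 10 at an unadjusted p under 0.05 was 2 with either TPM offset, beside 6.70% and 6.69% of all genes fitted, and 1 to 2 with a mouse left out, 2 without the first *Glis2*+/+ mouse, beside 3.61% to 6.11% of all genes. With log2(TPM + 1) and log2(TPM + 0.1) the log2 fold change turned to -0.12 and -0.13 for *Hes1*, -0.027 and -0.059 for *Nrarp*, -0.10 and -0.15 for *Maml1*, -0.048 and -0.066 for *Maml3*, and -0.15 and -0.16 for *Ccnd1*. In these limma fits, which used the deposited TPM without rescaling, the median of all genes was -0.06 and -0.14. The protein-coding share of that TPM was 9.47% to 11.4% in *Glis2*+/+ and 8.98% to 10.4% in *Glis2*-/- libraries. In rescaled TPM the *Glis2*+/+ and *Glis2*-/- means were 75.6 and 76.7 for *Hes1*, 8.30 and 8.76 for *Nrarp*, and 19.3 and 19.3 for *Maml1*. With a mouse left out, the ranges were -0.025 to 0.14 for *Hes1*, -0.32 to 0.14 for *Hey1*, -1.03 to 0.071 for *Heyl*, -0.12 to 0.24 for *Nrarp*, -0.11 to 0.067 for *Rbpj*, 0.22 to 0.53 for *Lfng*, -0.0078 to 0.038 for *Maml1*, -0.75 to 0.26 for *Mfng* and -0.20 to 0.065 for *Rfng*. With a replicate block 0 genes were called and *Hey2* was at -1.03. Deviations from the genotype mean correlated at -0.016, 0.129 and 0.010 between mice numbered 1, 2 and 3, so only those numbered 2 passed 0.1, and 3 of 6 libraries correlated best with the library of their own number. The cause was not tested. *Hey2*, *Heyl* and *Mfng* had 51, 51 and 27 counts in their lowest library.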

Other observations

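For each gene but *Heyl*, the protein-coding gene with the nearest centred log2 CPM was sought among 15213, as a description over 6 libraries. *Hey2* had *Homer2* at a root-mean-square difference of 0.13 and *Mfng* had *Dkk2* at 0.17, while *Rgs5*, a pericyte marker, was the nearest of the lists to *Mfng* at 0.38. *Hes1* had *Serinc3*, *Hey1* had *Camsap3*, *Nrarp* had *Slc38a7*, *Rbpj* had *Rnf24*, *Maml1* had *Mob1a*, *Lfng* had *Sh3bp5* and *Rfng* had *Irs2*, at 0.02 to 0.07. Among the lists, the nearest were *Numb* to *Hes1*, *Foxa1* to *Hey1*, *Mib2* to *Nrarp*, *Hdac1* to *Rbpj*, *Ctbp1* to *Maml1* and *Snw1* to *Rfng*.

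*Maml1* made up 27.3% to 29.2% of the summed TPM of the Mastermind-like genes in *Glis2*+/+ and 25.3% to 27.3% in *Glis2*-/- libraries, ranges that lay apart by less than the rounding.

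Of the other marker lists, summed leukocyte markers were at 29.4 to 61.7 CPM in *Glis2*+/+ and 68.6 to 125 CPM in *Glis2*-/- libraries, without overlap. Of these 8 genes, 7 had a positive log2 fold change, but only 3, *Ptprc*, *Cd79a* and *Cd74*, had libraries that did not overlap. *Adgre1* was lower in *Glis2*-/-, at -1.56 (unadjusted p = 0.0431 from edgeR). Hormone-sensing luminal markers (995 to 1932 CPM), fibroblast markers (2306 to 7768 CPM) and adipocyte markers (4.84 to 19.6 CPM, with 3 of the 4 genes at 0 in a library) overlapped between the genotypes.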
